A study of Rattus norvegicus with 9 samples.

Results

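The adenylyl cyclases Adcy1, Adcy2, Adcy3, Adcy5, Adcy6, Adcy7, Adcy8 and Adcy9 were followed across the dorsal root ganglia of rats with a spinal cord injury, rats with a sham operation and unoperated rats. The 8 genes were chosen by symbol from the 30446 genes of the count table, and all 8 had enough counts to be among the 16627 genes tested. Messenger RNA came from 9 libraries of male Sprague-Dawley rats, 3 each from SCI (spinal cord injury), sham and naive animals. All samples carried the label of 30 days after injury, the naive ones included. The ganglia, which hold the cell bodies of sensory neurons and their glia, were taken on both sides from the last thoracic levels down to the sixth lumbar level. The labels do not give the age of the rats, the kind of injury or whether a library came from 1 animal or several, so p-values measure only the spread between these libraries.

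Adenylyl cyclases are membrane enzymes that make the second messenger cyclic AMP (cAMP) from ATP. The stimulatory G protein Gs activates them, and each isoform adds its own inputs. Adcy1 and Adcy8 are stimulated by calcium with calmodulin, and Adcy3, known from olfactory cilia, is usually placed beside them. Adcy2 and Adcy7 respond to the beta-gamma subunits of G proteins, Adcy5 and Adcy6 are inhibited by calcium and by the inhibitory G protein Gi, and Adcy9 is little affected by the plant compound forskolin that activates the others. In sensory neurons cAMP acts through protein kinase A and Epac, and is known to sensitise nociceptors and to promote axon growth.

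Every isoform was detected in every library, with the fewest counts for Adcy1 in sham 2 (211) and the most for Adcy3 in naive 2 (2168). Of the 8 isoforms, none was called between SCI and sham, as for 0% of all genes. Adcy8 and Adcy9 were lower in SCI than in naive ganglia, where 24.6% of all genes were. Adcy1, Adcy6, Adcy8 and Adcy9 were lower in sham than in naive ganglia, where 25.9% of all genes were, each at an adjusted p under 0.05 from edgeR. All but Adcy6 of these calls against naive were lost when a trend on gene size, described below, was removed from every library. Adcy5 was not called in any comparison, but was then called higher in both operated groups than in naive ganglia. Levels are given in CPM, read counts scaled to a common library size. They are not compared between isoforms, since no transcript lengths were at hand.

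Upstream sequence was at hand for 5 of the 8 isoforms in a RefSeq promoter table of build GRCr8, which covers 250 bases before and 50 after each annotated start. The windows of Adcy9 and Adcy5 are shown so that both can be read side by side. Before removal of the trend on gene size, Adcy9 was called lower in both operated groups than in naive ganglia, and Adcy5 was not. Capitals mark TGACG, the half-site of the cAMP response element, on either strand. Adcy9 lies on the plus strand at chr10:11645595-11645894 and Adcy5 on the minus strand at chr11:79123294-79123593.
Adcy9: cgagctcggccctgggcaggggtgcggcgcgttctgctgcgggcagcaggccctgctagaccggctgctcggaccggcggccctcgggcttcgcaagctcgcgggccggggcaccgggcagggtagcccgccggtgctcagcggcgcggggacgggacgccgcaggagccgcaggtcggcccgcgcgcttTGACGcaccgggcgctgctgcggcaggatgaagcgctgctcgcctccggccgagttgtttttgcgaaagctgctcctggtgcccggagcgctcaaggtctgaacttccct
Adcy5: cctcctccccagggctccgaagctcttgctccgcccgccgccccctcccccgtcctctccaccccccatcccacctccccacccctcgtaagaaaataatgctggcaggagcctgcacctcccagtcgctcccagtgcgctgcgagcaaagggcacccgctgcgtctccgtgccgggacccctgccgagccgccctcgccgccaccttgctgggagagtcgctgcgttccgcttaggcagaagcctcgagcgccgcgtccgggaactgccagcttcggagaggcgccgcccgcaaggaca
The half-site began 60 bases before the start of Adcy9 and occurred in 2 of the 5 windows, those of Adcy7 and Adcy9, against 22.0% of 27457 promoters. Adcy7 was not called in any comparison, and Adcy1, called lower in sham than in naive ganglia, had no half-site. A link between the half-site and the levels was not tested. The full element TGACGTCA, which contains the half-site, was in none of the 5 windows and in 1.91% of all promoters. The GC box GGGCGG was found in 3 of the 5, those of Adcy1, Adcy2 and Adcy5, against 34.9% of all, and TATAAA in none, against 14.3%. The 5 windows held 58.3% to 84.7% G and C, where the median of all promoters was 52.3%.

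Library totals ran from 16724878 to 32060538 counts, and 1 CPM stood for 16.8 to 32.4 counts. All 10 listed sensory neuron markers lay above 1 CPM in each group. About as many genes were higher as lower in SCI than in naive ganglia (23.9% and 24.6% of 16627), and 25.9% were lower in sham than in naive. Among 26 tested genes known for very long coding sequences, 25 were lower in SCI and 26 in sham than in naive ganglia, and all 23 tested ribosomal protein genes were higher in both. Both lists were written with that pattern known. The labels give no batch, so an operation and any batch of the naive libraries alone cannot be told apart.

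The same difference from naive ran with gene size over the genes whose size was found, and most of the isoforms are among the largest. Genomic span, the distance from the start to the end of a gene with introns, was found in the RefSeq gene table (assembly GRCr8) for 13824 of 16627 genes tested, 83.1%, and for all 8 isoforms. With these genes split by span into 4 groups of 3456, in the group of longest span, 44.3% were called lower and 9.14% higher in SCI than in naive ganglia, while in the group of shortest span 7.49% were called lower and 44.8% higher. Adcy1, Adcy2, Adcy3, Adcy5, Adcy8 and Adcy9 belong to the group of longest span, and, counted from the shortest, Adcy7 to the third and Adcy6 to the second. Between SCI and sham the median log2 change was 0.010 in the group of longest span and -0.021 in the shortest. An analysis chosen after the data were seen removed each library's trend on span before the test. It left Adcy8 at a log2 change of -0.17 for SCI against naive (edgeR adjusted p = 0.121) and Adcy9 at -0.038 (adjusted p = 0.756), neither called. It called Adcy5 higher in SCI than in naive ganglia (0.30, adjusted p = 0.00441) and in sham than in naive ganglia (0.31, adjusted p = 0.00349), and of the isoforms called lower in sham it kept only Adcy6 (-0.24, adjusted p = 0.0333). In the values below no trend on gene size has been removed unless said.

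**Figure D1:**
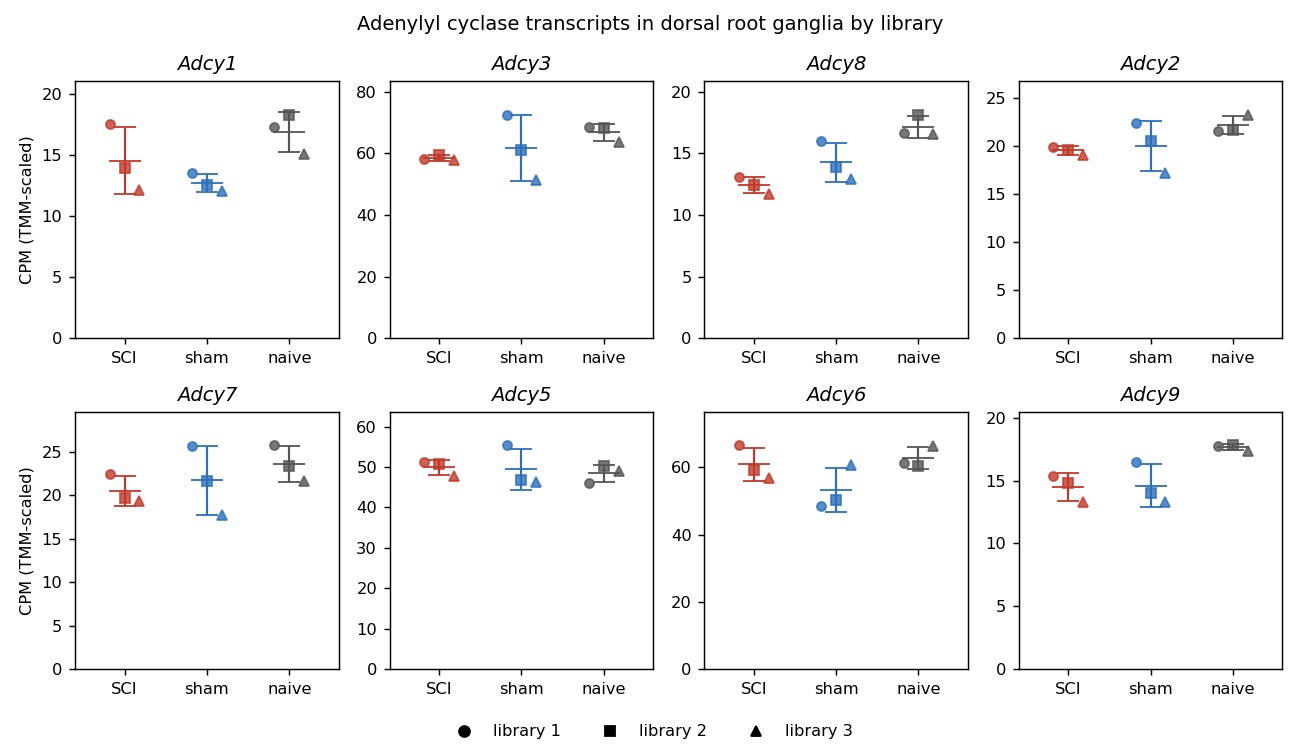
Level of each isoform in CPM (vertical axes, from 0) in the SCI, sham and naive libraries, with bars for the mean ± SD of 3 libraries and 1 symbol per library. Adcy8 lies between 11.7 and 13.1 CPM in SCI and between 16.5 and 18.1 CPM in naive ganglia, while the Adcy5 groups overlap.

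Adcy8 (ENSRNOG00000004890) had the largest log2 change of the 8 isoforms for SCI against naive, and Adcy1 for sham against naive. It held 13.1, 12.5 and 11.7 CPM in SCI 1 to 3, 16.0, 13.9 and 12.9 CPM in sham 1 to 3, and 16.6, 18.1 and 16.5 CPM in naive 1 to 3. All SCI and all sham libraries lay below all naive libraries, and SCI and sham overlapped only through SCI 1 and sham 3. Against naive, Adcy8 fell by 27.3% in SCI (log2 change -0.46, SE 0.095, 95% interval -0.66 to -0.25, edgeR adjusted p = 0.00145). Of 20 alternative analyses the call held in 19, at log2 changes from -0.50 to -0.41, and it was lost when the trend on gene span was removed (-0.17, adjusted p = 0.121). Sham against naive gave -0.26 (SE 0.095, edgeR adjusted p = 0.0373). That call was lost without naive 1, naive 2 or naive 3 (adjusted p = 0.0676, 0.150 and 0.0572), without sham 2 or sham 3 (0.104 and 0.127), without SCI 2 (0.0601), with DESeq2 (0.0669) and in a fit of only these 2 groups (0.0683), and with the span trend removed the value turned to 0.047. SCI against sham gave -0.20 (SE 0.098, 95% interval -0.41 to 0.0098), with an unadjusted p of 0.0600 and an edgeR adjusted p of 0.9999. Without sham 1 it was -0.10 and without sham 3 it was -0.28, neither of which passed.

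Adcy1 (ENSRNOG00000059479), the other isoform known for strong stimulation by calmodulin, stood at 17.6, 13.9 and 12.1 CPM in SCI 1 to 3, 13.5, 12.6 and 12.1 CPM in sham 1 to 3, and 17.3, 18.3 and 15.1 CPM in naive 1 to 3. SCI 1 lay within the naive range, while the sham libraries lay together below all naive ones. Sham against naive had a log2 change of -0.41 (SE 0.13, edgeR adjusted p = 0.0159). The call was lost, though narrowly, without naive 1, naive 2 or sham 2 (adjusted p = 0.0510, 0.0734 and 0.0506), and with the span trend removed (-0.15, adjusted p = 0.297). SCI against naive was not called (log2 change -0.21, edgeR adjusted p = 0.187), but without SCI 1 it was (-0.38, edgeR adjusted p = 0.0193). Without SCI 3 it was -0.094 (adjusted p = 0.568), and with the span trend removed it turned to 0.025. SCI against sham had a log2 change of 0.20 (SE 0.13, 95% interval -0.076 to 0.48), which was 0.032 without SCI 1. Adcy1 varied more among SCI libraries than any other isoform, with a coefficient of variation of 19.0%.

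Adcy3 (ENSRNOG00000003999) held 58.0, 59.4 and 57.8 CPM in SCI 1 to 3, 72.5, 61.1 and 51.4 CPM in sham 1 to 3, and 68.4, 68.3 and 63.7 CPM in naive 1 to 3. The SCI libraries lay within 2 CPM of each other and below all naive libraries, while the sham libraries spanned the range of both. SCI against naive did not pass (log2 change -0.19, SE 0.097, edgeR adjusted p = 0.116), but passed in a fit of only these 2 groups (-0.20, adjusted p = 0.00203), without sham 1 (0.0177) and without sham 3 (0.0209). With the span trend removed it turned to 0.037. SCI against sham had a log2 change of -0.081 (95% interval -0.29 to 0.13), which turned to 0.056 without sham 1. Sham against naive had a log2 change of -0.11, which passed without sham 1 (-0.26, edgeR adjusted p = 0.0107) and turned to 0.14 with the span trend removed. In the GRCr8 gene table the place of Adcy3 overlaps that of Dnajc27 (106 CPM on average here), and the library kit does not mark strand, so reads shared by both cannot be assigned.

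Of the isoforms that respond to beta-gamma subunits, neither was called in any of the 3 comparisons. Adcy2 (ENSRNOG00000032150) stood at 19.9, 19.6 and 19.1 CPM in SCI 1 to 3, 22.3, 20.5 and 17.2 CPM in sham 1 to 3, and 21.6, 21.6 and 23.3 CPM in naive 1 to 3. All SCI libraries lay below all naive ones, by a log2 change of -0.18 (SE 0.091, edgeR adjusted p = 0.117), and this passed in a fit of only these 2 groups (adjusted p = 0.0204) and without sham 3 (0.0381), but turned to 0.15 with the span trend removed. Without sham 1, sham against naive passed for Adcy2 as well (-0.25, edgeR adjusted p = 0.0345, against -0.14 with all libraries, -0.036 without sham 3 (adjusted p = 0.722) and 0.20 with the span trend removed). Adcy7 (ENSRNOG00000014776), which blood and immune cells are known to express, held 22.4, 19.6 and 19.3 CPM in SCI 1 to 3, 25.6, 21.7 and 17.8 CPM in sham 1 to 3, and 25.7, 23.4 and 21.6 CPM in naive 1 to 3. Its groups overlapped in every comparison, and SCI against naive (-0.20, edgeR adjusted p = 0.186) passed in the fit of only these 2 groups (adjusted p = 0.0424), but stood at -0.031 with the span trend removed (adjusted p = 0.853). SCI against sham had log2 changes of -0.037 for Adcy2 (95% interval -0.24 to 0.16) and -0.086 for Adcy7 (-0.35 to 0.17), which turned to 0.056 and 0.063 without sham 1.

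The calcium-inhibited pair, Adcy5 and Adcy6, which are close relatives, differed from each other in their values. Adcy5 (ENSRNOG00000002229) held 51.2, 50.6 and 47.9 CPM in SCI 1 to 3, 55.3, 46.8 and 46.2 CPM in sham 1 to 3, and 46.0, 50.3 and 48.9 CPM in naive 1 to 3. Its groups overlapped, and its log2 changes were 0.010 for SCI against sham (95% interval -0.16 to 0.18), 0.044 for SCI against naive (-0.12 to 0.21) and 0.034 for sham against naive (-0.13 to 0.20). With the span trend removed, Adcy5 was called higher in both operated groups than in naive ganglia, as given above. Adcy6 (ENSRNOG00000054757) held 66.5, 59.2 and 56.8 CPM in SCI 1 to 3, 48.5, 50.4 and 60.7 CPM in sham 1 to 3, and 61.2, 60.4 and 66.4 CPM in naive 1 to 3. Sham 1 and sham 2 were the lowest of all 9 libraries, and sham 3 lay within the naive range. Sham against naive had a log2 change of -0.24 (SE 0.090, edgeR adjusted p = 0.0403), a call lost in 9 of 20 alternatives (adjusted p up to 0.129, without sham 2). Those 9 leave out naive 1, naive 2, naive 3, sham 1, sham 2 or SCI 2, or use upper-quartile scaling, only these 2 groups or libraries thinned to 1 depth. SCI against sham had a log2 change of 0.20 (SE 0.090, 95% interval 0.0019 to 0.39), the smallest p of the 8 isoforms in that comparison (unadjusted p = 0.0481, edgeR adjusted p = 0.9999). It ranged with 1 library left out from 0.13 without SCI 1 or sham 1 to 0.30 without sham 3, and was not called in any of these fits. SCI against naive stood at -0.042 and did not pass.

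Adcy9 (ENSRNOG00000049768) held 15.4, 14.8 and 13.3 CPM in SCI 1 to 3, 16.5, 14.0 and 13.3 CPM in sham 1 to 3, and 17.8, 17.8 and 17.4 CPM in naive 1 to 3. All 6 libraries of operated rats lay below all naive libraries, which differed by less than 1 CPM, and SCI and sham overlapped. SCI against naive had a log2 change of -0.28 (SE 0.094, edgeR adjusted p = 0.0247) and sham against naive -0.27 (SE 0.095, edgeR adjusted p = 0.0312). The first call was lost without naive 1, naive 2, SCI 2 or SCI 3 (adjusted p = 0.0671, 0.0715, 0.0583 and 0.108) and with the span trend removed. The second was lost without any 1 of naive 1, naive 2, naive 3, sham 2, sham 3 or SCI 2 (adjusted p from 0.0505 to 0.103), with DESeq2 (0.0527), in a fit of only these 2 groups (0.0521) and with the span trend removed (-0.0034, adjusted p = 0.979). SCI against sham stood at -0.013 (95% interval -0.22 to 0.20), and turned to 0.092 without sham 1 and to 0.045 without SCI 3.

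**Figure D2:**
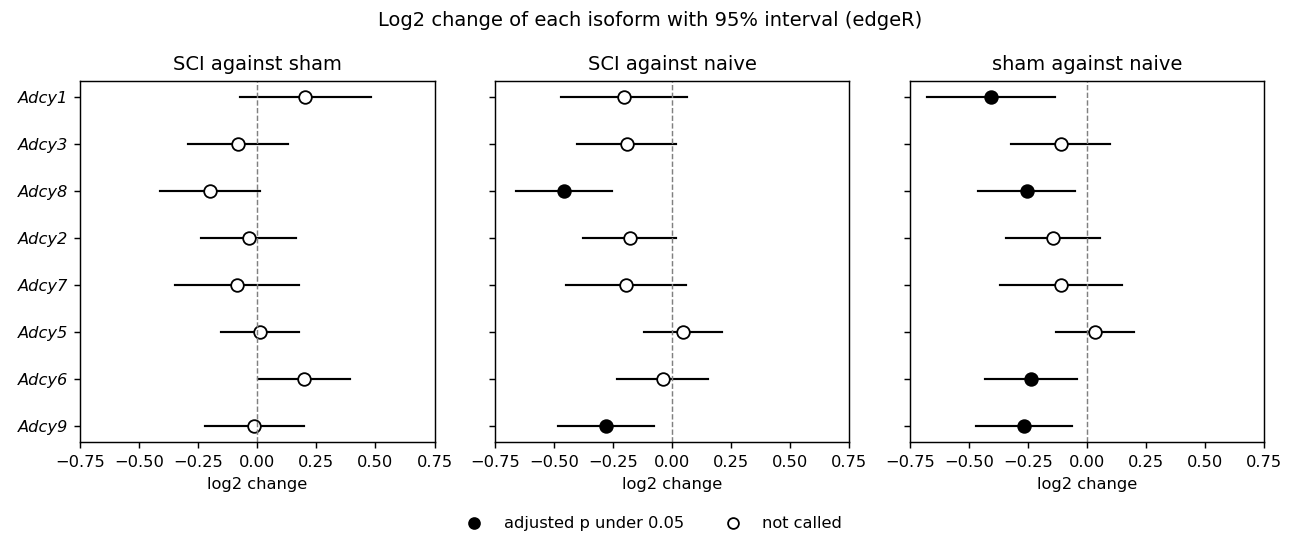
Log2 change of each isoform (horizontal axis) for SCI against sham, SCI against naive and sham against naive, with lines for the 95% interval from edgeR and filled symbols for an adjusted p under 0.05. No symbol is filled for SCI against sham, 2 are filled for SCI against naive and 4 for sham against naive, all of them left of 0. No trend on gene size is removed here, and with it removed only Adcy6 (sham against naive) stays called of these.

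In the main analysis, 0 of 8 isoforms were called between SCI and sham, where 0% of all genes tested were called. At an unadjusted p under 0.05 there was 1 of 8 with edgeR, against 3.16% of all genes. DESeq2 and limma-voom called none of the 8 either, nor did any of the 20 alternatives. In no isoform were the SCI and sham libraries apart, where 6.41% of all genes had groups that did not overlap. The median log2 change of the 8 was -0.025, against -0.0008 over all genes, with 5 of 8 negative, where 50.3% of all genes were. Between SCI and naive, 2 of 8 were called lower and 0 higher, against 24.6% and 23.9% of all genes. The share of isoforms called lower was thus close to that of all genes. In the group of longest span, to which Adcy8 and Adcy9 belong, 44.3% of genes were called lower and 9.14% higher. The SCI libraries lay below all naive libraries in 4 of 8 (Adcy2, Adcy3, Adcy8 and Adcy9), where 31.9% of all genes did so. The median of the 8 was -0.20, against 0.012 over all genes and -0.22 in the group of genes with the longest span, and 7 of 8 were negative, against 49% of all genes. Between sham and naive, 4 of 8 were called lower, against 25.9% of all genes (none higher, against 24.7%), with a median of -0.19 against 0.0005 and with 7 of 8 negative, against 49.9% of all genes. In the group of longest span, which holds 6 of the 8, 45.9% of genes were called lower in sham than in naive ganglia, with a median of -0.24. In the span group of Adcy6, 16.4% were called lower. The sham libraries lay below all naive libraries in 3 of 8, where 29.2% of all genes did so. SCI and sham are set against the same naive libraries, so their differences from naive are not independent of each other. The 8 isoforms together summed to 250.6 ± 13.05 CPM in SCI, 247.6 ± 20.2 CPM in sham and 275.2 ± 2.67 CPM in naive ganglia (mean ± SD, n = 3).

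In such bulk tissue, fewer cells of a type and less RNA per cell cannot be told apart, and marker genes of several cell types moved with the difference from naive. The 7 listed Schwann cell myelin markers summed to 18630 to 22730 CPM in SCI, 17220 to 21500 CPM in sham and 29370 to 31160 CPM in naive libraries. The 6 fibroblast markers summed to 2204 to 2754 CPM in SCI, 1923 to 3284 CPM in sham and 3706 to 4328 CPM in naive libraries. The 8 satellite glia markers ran the other way, with 8570 to 9660 CPM in SCI, 8495 to 10850 CPM in sham and 6495 to 6559 CPM in naive libraries. The 10 sensory neuron markers summed to 20370 to 21210 CPM in SCI, 18760 to 26520 CPM in sham and 18770 to 19340 CPM in naive libraries. The 8 macrophage markers summed to 213.1 to 219.4 CPM in SCI, 172 to 275.5 CPM in sham and 157.2 to 182.1 CPM in naive libraries, while Adcy7 had lower means in SCI and sham than in naive ganglia. Endothelial markers, 6 of which were matched, summed to 169.9 to 192 CPM in SCI, 150.6 to 207.1 CPM in sham and 194.9 to 211.7 CPM in naive libraries. The 8 skeletal muscle markers summed to 65.2 to 103.1 CPM in SCI, 137.9 to 154.4 CPM in sham and 70.23 to 121.5 CPM in naive libraries, the only marker list of the 8 in which all SCI libraries lay apart from all sham libraries. The 5 markers of spinal cord glia summed to 44.33 to 47.9 CPM in SCI, 34.31 to 45.82 CPM in sham and 37.09 to 42.96 CPM in naive libraries. Of the markers in all 8 lists, 1 was at 0 in all libraries, the endothelial Cldn5. The part of these cell types in the results on the isoforms was not tested.

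The sham libraries differed among themselves, over all genes as well as in these isoforms. In 7 of the 8 isoforms sham 1 was the highest and sham 3 the lowest sham library, an order that 21.9% of all 16627 genes had, and Adcy6 ran in the reverse order, as did 25.3% of all genes. The summed sensory neuron markers stood at 26520 CPM in sham 1, 21330 in sham 2 and 18760 in sham 3. Adcy3, with 72.5, 61.1 and 51.4 CPM in the same libraries, kept that order, as did Adcy7 and Adcy2. The summed fibroblast markers (1923, 2679 and 3284 CPM), Schwann cell myelin markers (17220, 18890 and 21500 CPM) and endothelial markers (150.6, 173.4 and 207.1 CPM) had the order of Adcy6 instead, as did the satellite glia markers (8495, 8722 and 10850 CPM) and the macrophage markers (172, 216.9 and 275.5 CPM). Of the 7 listed endothelial markers Pecam1 was not matched. The coefficient of variation was larger in sham than in SCI for 7 of 8 isoforms and for 72.6% of all genes, and was 17.2% in sham and 1.5% in SCI for Adcy3. Their part in the results between SCI and sham was not tested, and for Adcy2, Adcy3, Adcy7 and Adcy9 the sign of that difference depended on sham 1.

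**Figure D3:**
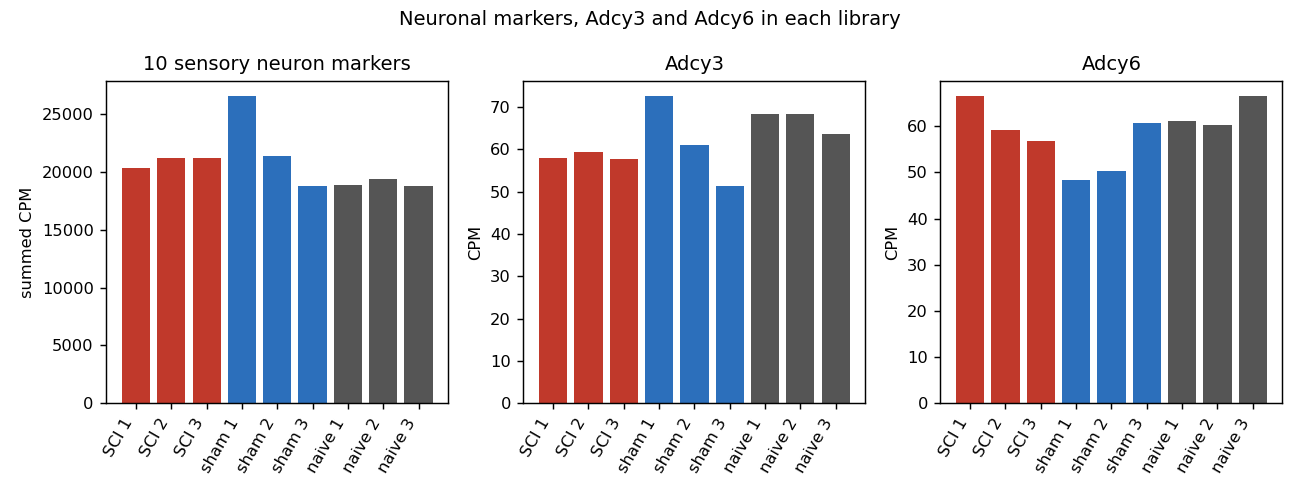
Summed CPM of 10 sensory neuron markers, and CPM of Adcy3 and Adcy6, as bars from 0 for each SCI, sham and naive library. In the sham libraries the neuronal markers and Adcy3 are highest in sham 1 (26520 and 72.5 CPM), where Adcy6 is lowest (48.5 CPM).

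The share of each isoform in the counts of all 8 does not depend on the scaling of the library. Adcy8 took 4.95%, 4.99% and 4.93% of these counts in SCI 1 to 3, 5.93%, 5.76% and 5.57% in sham 1 to 3, and 6.06%, 6.52% and 6.06% in naive 1 to 3. The 3 groups did not overlap, although the CPM of SCI and sham did. With Adcy6 left out of the sum, Adcy8 took 6.62%, 6.54% and 6.47% in SCI, 7.22%, 7.28% and 7.55% in sham and 7.80%, 8.33% and 8.01% in naive libraries, again without overlap. Both sums use the same libraries and counts, so they are not independent. Adcy8 was the only isoform whose share separated SCI from sham, among 8 compared. In CPM, a different measure, 6.41% of all genes had SCI and sham groups that did not overlap. The exact two-sided permutation test of the Adcy8 share, SCI against sham, gave p = 0.1. That is the smallest p that 3 against 3 libraries can give, and the adjusted p over the 24 share comparisons was 0.3. With so few libraries no share could have passed, whatever its values, so the test cannot decide whether any share differed. Adcy5 took 19.4% to 20.3% in SCI and 19.4% to 20.5% in sham, against 16.8% to 18.1% in naive libraries. Adcy9 took 5.58% to 5.94% in SCI and 5.74% to 6.10% in sham, against 6.37% to 6.47% in naive libraries. The Adcy1 share was 4.99% to 5.21% in sham and 5.53% to 6.58% in naive libraries, without overlap. In SCI it was 5.10% to 6.65%, which overlapped both. The shares were not corrected for gene size. They were compared after the levels had been seen, and a share can move because another isoform does.

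**Figure D4:**
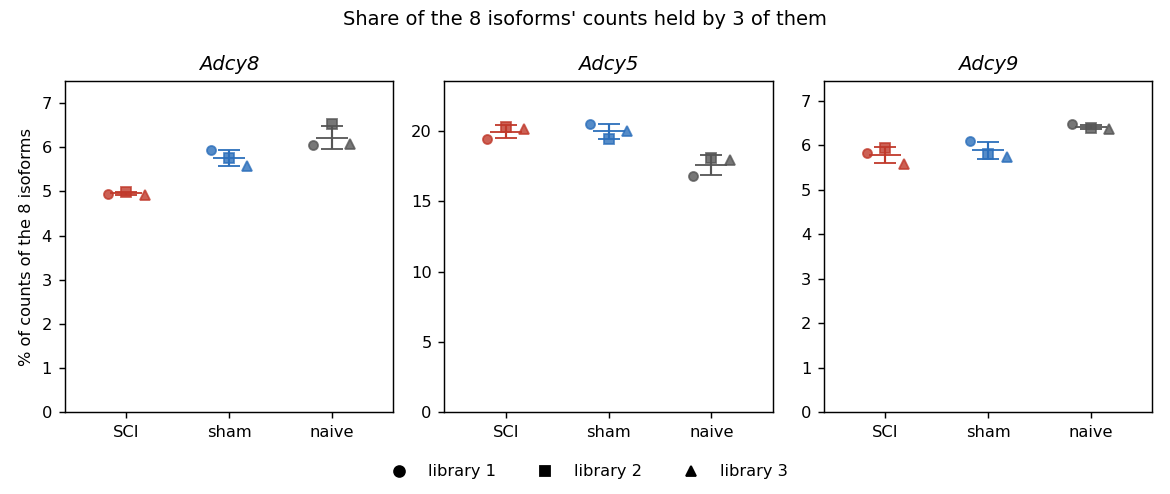
Percent of the counts of all 8 isoforms (vertical axes, from 0) held by Adcy8, Adcy5 and Adcy9 in SCI, sham and naive libraries, with bars for the mean ± SD of 3 libraries and 1 symbol per library. The Adcy8 share lies at 4.93% to 4.99% in SCI, 5.57% to 5.93% in sham and 6.06% to 6.52% in naive libraries.

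The table holds a pair of further adenylyl cyclases outside the 8. Adcy4, known from endothelial cells, averaged 10.03 ± 0.994 CPM in SCI ganglia, 9.85 ± 2.70 CPM in sham ganglia and 7.11 ± 1.40 CPM in naive ganglia (n = 3 each). It was higher in SCI than in naive libraries (log2 change 0.50, SE 0.18, edgeR adjusted p = 0.0335) and in sham than in naive (0.46, SE 0.18, edgeR adjusted p = 0.0484), opposite in direction to the called members. Over all genes 23.9% and 24.7% were higher in these comparisons. Sham and naive overlapped, with sham 1 and sham 2 (7.97 and 8.63 CPM) below naive 3 (8.71 CPM). The alternative analyses, including removal of the span trend, were not run for Adcy4. The summed endothelial markers lay lower in SCI (169.9 to 192 CPM) than in naive libraries (194.9 to 211.7 CPM), and in sham (150.6 to 207.1 CPM) they overlapped naive. Within sham 1 to 3 they rose (150.6, 173.4 and 207.1 CPM), as Adcy4 did (7.97, 8.63 and 12.9 CPM). Within SCI both were highest in SCI 1 (192 and 11.1 CPM). Among naive libraries the markers were highest in naive 1 and Adcy4 in naive 3. The part of endothelial cells in the Adcy4 values was not tested. Adcy10, the soluble isoform, averaged 1.19 ± 0.0462 CPM in SCI ganglia, 1.33 ± 0.358 CPM in sham ganglia and 1.22 ± 0.152 CPM in naive ganglia, on 25 to 44 counts a library, and was not called.

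Genes that follow the isoforms across the 9 libraries were ranked by Pearson's r of log2 CPM among 11023 genes of at least 5 CPM. The values are descriptions without a test, since all genes share the same libraries, the naive group lies apart, and the highest of so many values is high by choice. Adcy8 was most like Kcnma1 (0.973), the pore of the large-conductance calcium-activated potassium channel, and Kcnq5 (0.971), of the M-type potassium channel. Adcy9 was most like Atp11a (0.991), a phospholipid flippase, and Dip2a (0.988). Adcy3 was most like Dync1i1 (0.985), a dynein intermediate chain, and Entpd3 (0.981), an ectonucleotidase. Adcy6 was most like Rapgef3 (0.968), the cAMP sensor Epac1, and Fnbp4 (0.955). Adcy2 was most like Atp9b (0.972) and Btrc (0.967), and Adcy7 most like Epb4.1 (0.959), which encodes a protein of the membrane skeleton, and Sgpp2 (0.952). Adcy5 was most like Cntnap1 (0.955), of the paranodal axon membrane, and Ctif (0.945). Zfp106 (0.929) was among the genes most like Adcy1.

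The G proteins that act on the cyclases were set beside them, with 4 of 7 alpha subunits higher and 2 lower in SCI than in naive ganglia, with no trend on gene size removed in this and the next lists, against 23.9% and 24.6% of all genes. Gnai2, an inhibitory subunit, averaged 642 ± 15.9 CPM in SCI ganglia, 650.2 ± 42.4 CPM in sham ganglia and 437 ± 12.5 CPM in naive ganglia (log2 change 0.56, SE 0.070, edgeR adjusted p = 3.56e-05). Gnal, a stimulatory subunit of the Gs class, averaged 183 ± 10 CPM in SCI ganglia, 188 ± 15.8 CPM in sham ganglia and 124.5 ± 1.73 CPM in naive ganglia (0.56, edgeR adjusted p = 4.25e-05). Gnaz, an inhibitory subunit, averaged 76.8 ± 3.13 CPM in SCI ganglia, 78.0 ± 15 CPM in sham ganglia and 48.5 ± 0.294 CPM in naive ganglia (0.66, edgeR adjusted p = 0.000235). The same numbers, 4 higher and 2 lower, were called between sham and naive, and none between SCI and sham. The smallest p there were those of Gnas, the main Gs subunit (log2 change -0.088, SE 0.079), and Gnal (-0.038, SE 0.072).

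Of 15 tested phosphodiesterases, which break down cAMP, 3 were lower and 0 higher in SCI than in naive ganglia, and again 3 lower and 0 higher in sham. Over all genes 24.6% were lower and 23.9% higher in SCI than in naive ganglia, and 25.9% lower and 24.7% higher in sham than in naive ganglia, so that the phosphodiesterases called were no larger a share than that. Pde7a averaged 7.17 ± 0.102 CPM in SCI ganglia, 5.90 ± 0.511 CPM in sham ganglia and 10.96 ± 0.987 CPM in naive ganglia (SCI against naive log2 change -0.61, SE 0.11, edgeR adjusted p = 0.000414). Pde3b and Pde1c had log2 changes of -0.39 (SE 0.087) and -0.27 (SE 0.10) for SCI against naive. Between SCI and sham none was called, with the smallest p for Pde7a (0.29, SE 0.12, unadjusted p = 0.0279) and Pde3a (0.35, SE 0.16). The list's median for SCI against naive was -0.062.

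Among 17 tested Gs-coupled receptors, which raise cAMP, 2 were higher and 3 lower in SCI than in naive ganglia (3 and 2 in sham against naive), and none was called between SCI and sham. Both shares lay below those of all genes, 23.9% higher and 24.6% lower in SCI and 24.7% and 25.9% in sham. Pth1r, the parathyroid hormone receptor, averaged 23.8 ± 0.722 CPM in SCI ganglia, 25.7 ± 2.42 CPM in sham ganglia and 14.7 ± 0.965 CPM in naive ganglia (log2 change SCI against naive 0.70, SE 0.085, edgeR adjusted p = 2.80e-05). Calcrl, which forms the receptor of calcitonin gene-related peptide, averaged 18.5 ± 3.23 CPM in SCI ganglia, 19.6 ± 3.8 CPM in sham ganglia and 38.2 ± 3.03 CPM in naive ganglia (-1.04, SE 0.14, edgeR adjusted p = 5.49e-05). Adcyap1r1, the PACAP receptor, had a log2 change of -0.35 (SE 0.12). The smallest p between SCI and sham were those of Ptger2, a prostaglandin E2 receptor (-0.29, SE 0.14), and Gpr3 (-0.27, SE 0.19), neither called.

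The 23 tested Gi-coupled receptors, which lower cAMP, had 1 member higher and 6 lower in SCI than in naive ganglia (3 and 6 in sham against naive), where 23.9% of all genes were higher and 24.6% lower in SCI (24.7% and 25.9% in sham). The share of these receptors called lower was thus close to that of all genes. Cnr1, the cannabinoid receptor of neurons, averaged 22.0 ± 0.814 CPM in SCI ganglia, 21.5 ± 2.77 CPM in sham ganglia and 44.0 ± 1.02 CPM in naive ganglia (log2 change SCI against naive -0.99, SE 0.085, edgeR adjusted p = 1.98e-06). Oprm1, the mu opioid receptor, and Npy1r, a neuropeptide Y receptor, had log2 changes of -0.94 (SE 0.20) and -0.54 (SE 0.11). None was called between SCI and sham, where Htr1a (0.34, SE 0.20) and Adra2c (-0.17, SE 0.10) had the smallest p.

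Of 21 tested regulators and anchors of the cyclases, 6 were higher and 3 lower in SCI than in naive ganglia (9 and 3 in sham against naive), where 23.9% of all genes were higher and 24.6% lower in SCI (24.7% and 25.9% in sham). Akap6, an anchor of protein kinase A, averaged 174.5 ± 14.2 CPM in SCI ganglia, 174.7 ± 18.1 CPM in sham ganglia and 318 ± 15.9 CPM in naive ganglia (log2 change SCI against naive -0.86, SE 0.086, edgeR adjusted p = 6.08e-06). Prkca, a protein kinase C, had a log2 change of -0.81 (SE 0.087), and Gng3, a neuronal G protein gamma subunit, one of 0.63 (SE 0.074). None was called between SCI and sham, where Calm3, which encodes calmodulin, the activator of Adcy1 and Adcy8, averaged 1192 ± 19.6 CPM in SCI ganglia and 1304 ± 113 CPM in sham ganglia (-0.13, SE 0.076), and Cap2 had a log2 change of -0.19 (SE 0.12). Against naive, at 794 ± 6.86 CPM, Calm3 was higher in SCI (0.59, edgeR adjusted p = 4.70e-05), where Adcy8 was lower.

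**Figure D5:**
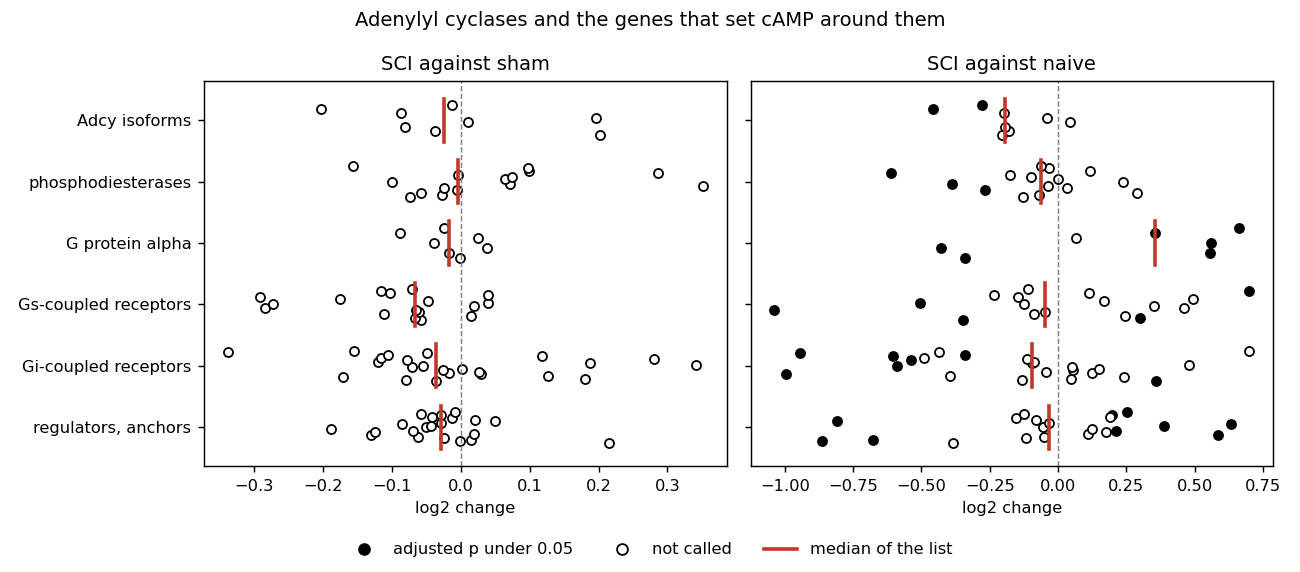
Log2 change (horizontal axes, which differ in range) of the 8 Adcy isoforms and of 5 lists of genes around them, for SCI against sham and SCI against naive, 1 symbol per gene, filled for an edgeR adjusted p under 0.05, with a bar for the median of each list. No gene is filled for SCI against sham. For SCI against naive the filled isoforms are Adcy8 and Adcy9, a pair no longer called once the trend on gene span is removed, and the median of the G protein alpha subunits is 0.35.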

How the data were processed

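Per the labels' protocols, RNA was taken up with the RNeasy Mini Kit, and the TruSeq RNA Sample Prep Kit V2 gave paired-end libraries. The submitters' processing notes name FastQC, Trimmomatic, TopHat2, HTSeq and DESeq2; their versions, the build and the annotation were not at hand. What the authors deposited are whole-number read counts per gene, not normalized. The main analysis used the quasi-likelihood test of edgeR (version 4.0.16, R 4.3.3) on TMM-scaled libraries, with default filtering of low counts, 1 mean per group, all 9 libraries in 1 fit and Benjamini-Hochberg adjustment over all 16627 genes tested. Calls are at an adjusted p under 0.05, and log2 changes and 95% intervals come from that fit. Log2 CPM used a prior count of 2. Alternatives were DESeq2 (1.42.0), limma-voom (3.58.1), other scalings and filters, a replicate block, thinning, an adjusted p under 0.1, only the groups compared and each library left out. After the data were seen 1 more was added, an offset per library from a loess of log2 CPM on log10 genomic span. It uses the RefSeq gene table (GRCr8), whose build may not be that of the counts. The test was also run on simulated counts, which held no trend on gene size, and no result given here rests on them. Named genes were all 8 isoforms, up to 3 called genes per list for SCI against naive, the 2 of smallest p per list for SCI against sham, and the 2 most alike per isoform, of which 1 gene is not reported here. Members and lists were chosen with earlier results of these data known.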

Additional observations from a re-analysis of the deposited data

How the results depend on the processing

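No alternative called an isoform between SCI and sham. Over all genes, that comparison gave 0% in the main analysis, 0.0452% (11 genes) without a low-count filter, 0.0329% (8 genes) with DESeq2 and 0% to 0.131% with 1 library left out. Between SCI and naive, 2 isoforms were called in the main analysis, 5 in a fit of only these groups, 1 (Adcy5, higher) with the trend on gene span removed and 1 to 4 with 1 library left out. Between sham and naive, 4 were called in the main analysis, 2 with DESeq2, 2 (Adcy5, higher, and Adcy6, lower) with the span trend removed, 1 in a fit of only these groups and 0 to 5 with 1 library left out. The cause of these shifts was not tested. The span trend, removed in an analysis chosen after seeing the data, ended the Adcy8 call between SCI and naive, which held in the other 19 alternatives, and every call against naive but that of Adcy6. It turned Adcy1, Adcy2 and Adcy3 to 0.025, 0.15 and 0.037 for SCI against naive, Adcy2, Adcy3, Adcy7 and Adcy8 to 0.20, 0.14, 0.080 and 0.047 for sham against naive, and Adcy5 to -0.0081 for SCI against sham, none called. Whether the trend on span comes from the ganglia or from the libraries was not tested. Leaving out a library turned the sign only of values that were not called. For SCI against sham the log2 changes then ran from -0.14 to 0.056 for Adcy2, -0.20 to 0.056 for Adcy3, -0.043 to 0.10 for Adcy5, -0.22 to 0.063 for Adcy7 and -0.084 to 0.092 for Adcy9. For SCI against naive Adcy6 ran from -0.11 to 0.0041, and for sham against naive Adcy3 from -0.26 to 0.013, Adcy5 from -0.065 to 0.091 and Adcy7 from -0.27 to 0.026. Replicate numbers are shared by the groups. The deviations of same-numbered libraries correlated at -0.095 to 0.124 and those of other pairs at -0.132 to 0.156. No pairing by number was thus seen, though 3 libraries per group cannot exclude one. With the replicate number as a block, 0, 2 and 4 isoforms were called in the 3 comparisons, as without it. A correction for protein length was planned and not run, since the sources used here give no protein lengths. In sham libraries Adcy1 rested on 211 to 367 counts and Adcy8 on 233 to 436.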
